A study of Mus musculus with 6 samples.

Results

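Subunits of cyclic nucleotide-gated (CNG) channels are represented on the array by 5 of its 27376 gene names, Cngb1, Cngb3, Cnga1, Cnga2 and Cnga3, with 7 of its 41174 gene probes. The probes were chosen by the gene name in the scanner files, for 6 subunit genes, after Cngb1 had stood out between the genotypes in these samples. For Cnga4, a modulatory subunit of the olfactory channel, the files hold 0 probes under that name or a RefSeq accession of the gene, so it was not analysed here. RNA of whole testis from wild-type (WT) mice was compared with that from mice whose serine protease gene Prss54 was knocked out (Prss54KO), 3 samples of each, all from males aged 6 to 8 weeks on a mixed 129Sv/C57BL/6 background. Each sample was measured on 1 array of 1 colour. The labels number the samples within a genotype and do not state that each comes from its own mouse, so errors and p-values cover the spread between these samples. They say neither which part of Prss54 was removed nor whether the knockout is 1 line.

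CNG channels are cation channels of the plasma membrane that open when cGMP or cAMP binds inside the cell. They are built from A subunits, of which Cnga1, Cnga2 and Cnga3 can form channels on their own, and modulatory subunits such as the B subunits, which change the channel's gating and its regulation by calmodulin. Cnga1 and Cngb1 encode the rod photoreceptor channel, Cnga3 and Cngb3 the cone channel, and Cnga2, Cnga4 and a shorter Cngb1 product the channel of olfactory sensory neurons. Cngb1 also gives rise to soluble glutamic acid-rich proteins. Subunits of this family have been described in bovine sperm and testis.

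Both probes of Cngb1 are shown because the difference between genotypes rests on them. Each probe is 60 bases long, and the end that holds the longest run shared by both, 5 bases in capitals, is given 5′ to 3′ as on the array, bases 1 to 30 of the first and 31 to 60 of the second.
Cngb1 A_51_P490286: tagttctctctcccaagaGTGAGggaccac
Cngb1 A_52_P359026: ctcatttacgGTGAGactcacagaaacaag
The files name transcript variant 2 of Cngb1 as the target of A_51_P490286 and transcript variant 1 as that of A_52_P359026, and both accessions are listed under Cngb1 in RefSeq (assembly GRCm38.p6). The probes thus read different sequences under 1 gene name. Read as on the array, the whole of A_51_P490286 holds a stop codon in each of the 3 frames, and A_52_P359026 is free of stops in 1 frame. The files place A_52_P359026 on the minus strand at chr8:97763334-97763393 and A_51_P490286 on the plus strand at chr5:143435182-143435241 (both mm9). No genome of that build was used here, so the chromosome 5 position was not checked and the exon or intron under each probe is not given. Of all 41174 probe sequences, searched on both strands for shared runs of 14 bases or more, the longest run in common with A_51_P490286 was 15 bases, and A_52_P359026 shared none. The chromosome 8 probe lies 319.6 kb from the probe of Prss54, and in RefSeq 7 protein-coding genes stand between them: Tepp, Zfp319, Usb1, Mmp15, Cfap20, Csnk2a2 and Ccdc113. The probe of Prss54 read 22677 to 26119.6 intensity units in the WT samples and 7381 to 9466 in the Prss54KO samples; whether it lies within the deleted part is not given.

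Across the 6 arrays, 66.2% to 74.8% of gene spots were well above background, 0 were saturated and the median signal was 204.9 to 222.8 intensity units. The arrays stood on 3 slides, of which 1 alone held both genotypes. That slide, numbered 2, carried WT replicate 3 with Prss54KO replicates 1 and 2; slide 3 carried the other two WT arrays and slide 1 the remaining Prss54KO array. Spermatid markers (6 of 6 genes), spermatocyte markers (5 of 5), Sertoli markers (6 of 6) and Leydig markers (4 of 4 on the array) were well above background on all WT arrays. Of 6 rod and cone markers, none was well above background on all WT arrays, and Crx and Rbp3 were so on no WT array. Of 5 markers of olfactory neurons, Gnal alone was well above background on all WT arrays. The summed signal of 5 epididymal markers ran from 428 to 506 in WT and from 525 to 584 in Prss54KO, with Lcn5, Lcn8 and Crisp1 well above background on no WT array. Most of this sum was Defb41 alone, at 355 to 382 in WT and 415 to 457 in Prss54KO. The summed signal of 4 red blood cell genes ran from 16515 to 42915 in WT and from 17975 to 23626 in Prss54KO. The part of either in the differences below was not tested.

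Cngb1 was higher in every Prss54KO sample than in every WT sample with both probes. The chromosome 5 position that the files give for A_51_P490286 was not checked. In whole testis, more RNA per cell and more cells of a type that holds the RNA cannot be told apart. Probe A_51_P490286 had a processed signal, meaning brightness as the scanner software reports it after its own background step, of 2229 in WT replicate 1, 2194 in WT replicate 2 and 2249.8 in WT replicate 3. In Prss54KO replicates 1, 2 and 3 it was 3799, 4146 and 3976. The WT values lay within a factor of 1.03 of each other, those of Prss54KO within 1.09, and the lowest Prss54KO value was 1.69 times the highest WT value. The means were 2224 ± 28.0 (SD, n = 3) and 3973 ± 174 (SD, n = 3).

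Probe A_52_P359026 was much dimmer and showed the same order of groups. Its signal was 104, 114 and 99.6 in WT replicates 1, 2 and 3 and 187, 210.1 and 214 in the Prss54KO replicates. Again the groups did not overlap, and the lowest Prss54KO value was 1.65 times the highest WT value. The means were 106 ± 7.14 (SD, n = 3) and 204 ± 14.6 (SD, n = 3). The lowest signal that counted as well above background was between 24.3 and 46.0 on the 6 arrays, so the dimmer probe was measured above it in both groups. Both probes were well above background on all 6 arrays.

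**Figure D1:**
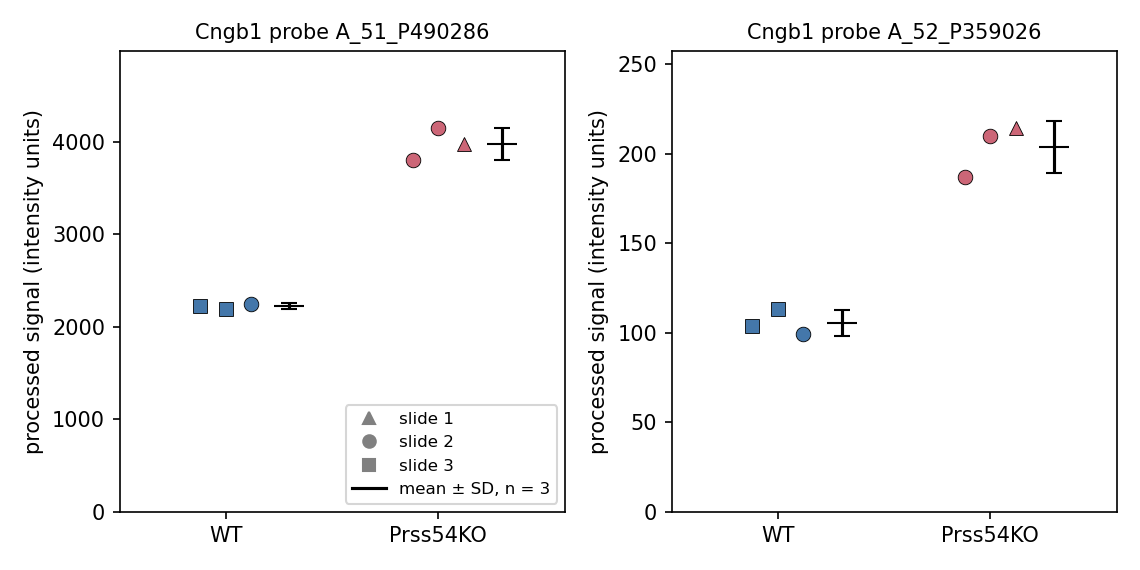
Processed signal (intensity units, axes from 0) of both Cngb1 probes on each array, by genotype, with the slide as the symbol and the mean ± SD (n = 3) as the bar. The 3 Prss54KO arrays lie at 3799 to 4146 for A_51_P490286 and at 187 to 214 for A_52_P359026, all above the WT arrays.

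Levels are given from here on as log2 of the processed signal minus that array's 75th percentile, and differences as Prss54KO minus WT with limma's standard error (SE). On this scale A_51_P490286 differed by 0.81 (SE 0.06), or 1.75-fold, and A_52_P359026 by 0.92 (SE 0.10), or 1.89-fold. Against its own WT mean, the first probe stood at 0.74, 0.88 and 0.80 in Prss54KO replicates 1, 2 and 3, and the second at 0.80, 0.98 and 0.98. Replicate 1 was the lowest Prss54KO sample by both probes. Cngb1 was picked for study because of this difference, so it is described here without a test. Of the 28913 probes that were well above background on at least 3 arrays, 89.6% differed by less than 0.2 in either direction, 52 differed upward by at least as much as the brighter Cngb1 probe and 32 by at least as much as the dimmer one, each count including the probe itself. These 28913 probes were the ones tested.

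The Cngb1 difference was present on the slide that held both genotypes. On slide 2, which had 1 WT and 2 Prss54KO arrays, it was 0.86 for the brighter and 1.03 for the dimmer probe. It stayed between 0.77 and 0.84, and between 0.84 and 0.99, when any single array was left out. With normexp background correction the values were 0.73 and 0.61, the lowest of all alternatives for each probe, and the dimmer probe then stood below the brighter one.

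**Figure D2:**
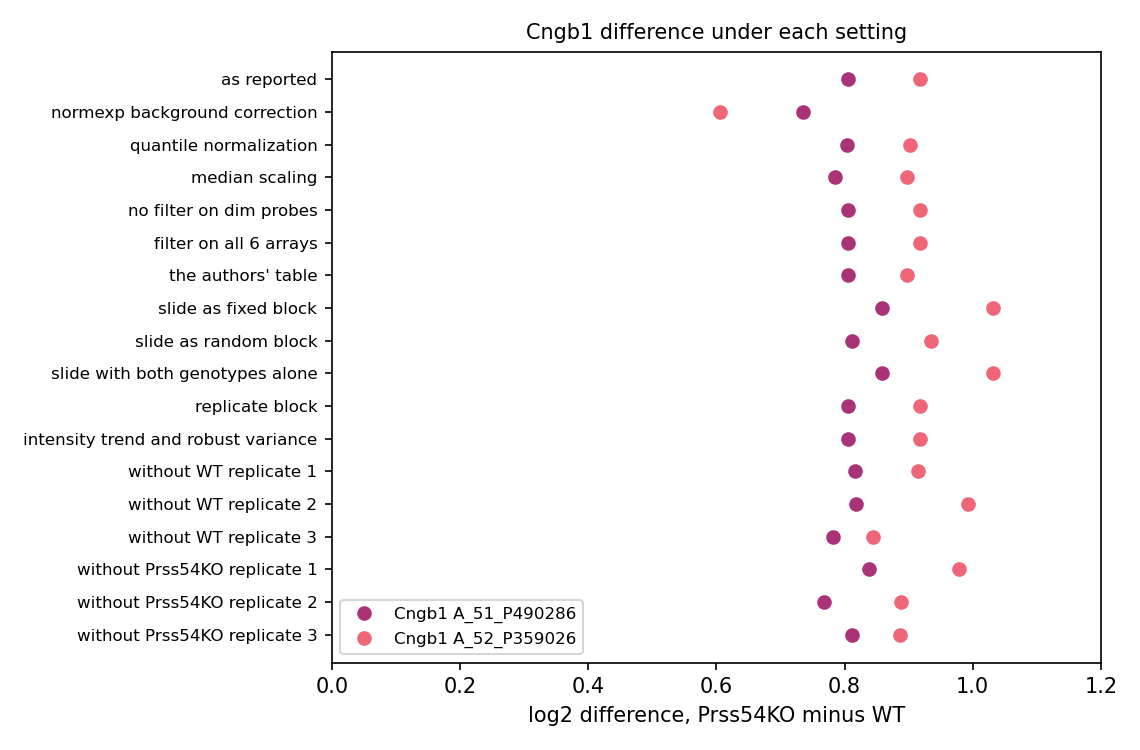
Log2 difference (Prss54KO minus WT) of both Cngb1 probes as reported and under each alternative setting, 1 point per probe and setting. All points lie above 0, between 0.73 and 0.86 for A_51_P490286 and between 0.61 and 1.03 for A_52_P359026. Settings that change only the filter, the variance or the replicate block repeat the reported value by construction.

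The A subunits were measured at low signals, and their groups overlapped. The single probe of Cnga1, the pore-forming rod subunit (chr5:72995140-72995198, mm9, minus strand), gave 77.2, 81.5 and 103 in WT and 81.2, 90.7 and 101 in Prss54KO replicates 1, 2 and 3. WT replicate 3 was the highest of the 6 samples and WT replicate 1 the lowest. The difference was 0.03 (SE 0.12). On slide 2, whose single WT array is replicate 3, it was -0.23, and leaving that array out gave 0.13.

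For Cnga2, the principal olfactory subunit (chrX:69254862-69254921, mm9, plus strand), the signals were 106, 118 and 113 in WT and 114, 95.0 and 144 in Prss54KO. The Prss54KO samples held both the lowest value, in replicate 2, and the highest, in replicate 3. The difference of 0.02 (SE 0.15) was smaller than this spread. It turned to -0.13 without Prss54KO replicate 3 and to 0.15 without Prss54KO replicate 2.

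Cnga3, the pore-forming cone subunit (chr1:37319170-37319229, mm9, plus strand), gave 121, 127 and 146 in WT and 169, 179 and 110.4 in Prss54KO. Prss54KO replicates 1 and 2 lay above every WT sample, and replicate 3 lay below every WT sample. The 3 highest values were those of slide 2. The difference was 0.16 (SE 0.19), 0.29 on slide 2, and 0.02 and 0.38 without Prss54KO replicate 2 and replicate 3. All 3 A subunit probes were well above background on the 6 arrays.

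The other B subunit, Cngb3 of the cone channel, was at background. Its probe A_52_P225959 (chr4:19436050-19436109, mm9, plus strand) gave 17.3, 23.8 and 30.9 in WT and 12.6, 32.4 and 38.0 in Prss54KO, and only the array of Prss54KO replicate 3 had it well above background. Probe A_51_P131466 (chr4:19437202-19437261, mm9, plus strand) gave 6.43 to 7.15 in WT and 4.91 to 9.86 in Prss54KO, well above background on no array. These 2 probes were not tested, and no fold is given for them.

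**Figure D3:**
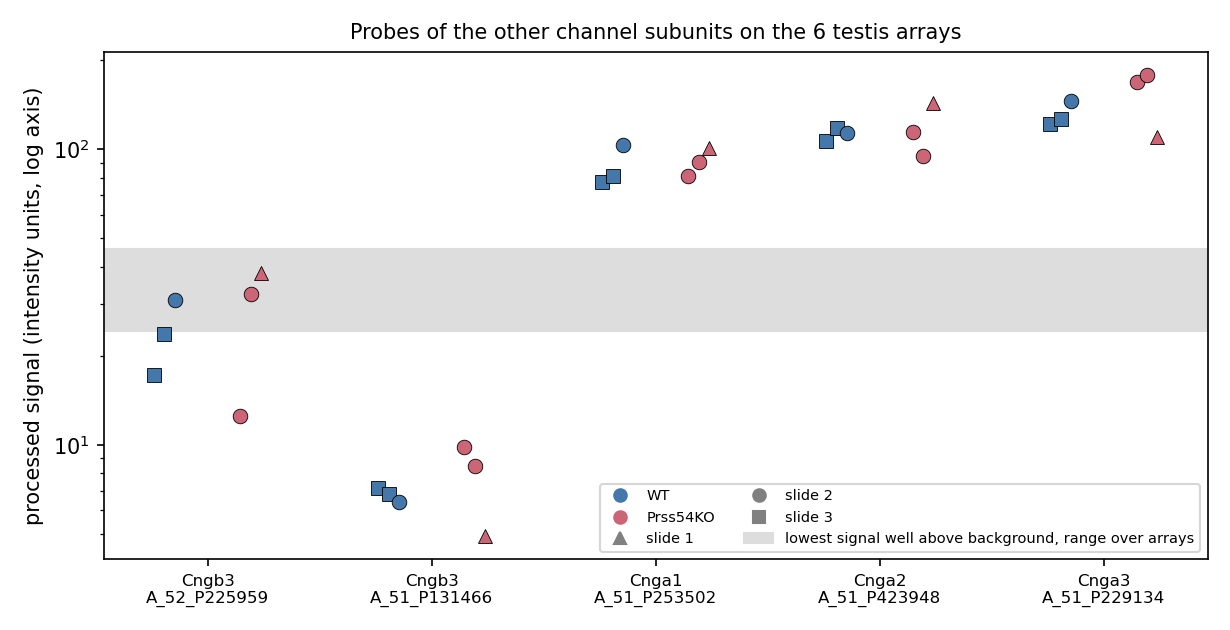
Processed signal (intensity units, log axis) of the probes of Cngb3, Cnga1, Cnga2 and Cnga3 on each array, coloured by genotype, with the slide as the symbol. The grey band spans the lowest signal well above background on the 6 arrays, 24.3 to 46.0. The Cnga1, Cnga2 and Cnga3 probes lie above the band. Cngb3 probe A_52_P225959 reaches into it, up to 38.0 in Prss54KO replicate 3, the only array that had it well above background. Cngb3 probe A_51_P131466 lies below it.

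Set against all probes, 2 of the 5 tested subunit probes, both of Cngb1, had groups that did not overlap, with Prss54KO higher. Among all tested probes this share was 4.2%, and 7.77% in either direction. At limma's adjusted p under 0.05, 0 subunit probes and 0 of all probes were called, or 0%. At limma's unadjusted p under 0.05, 936 of all probes were, or 3.24%. The members were chosen with this contrast known, so nothing is read from these shares.

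**Figure D4:**
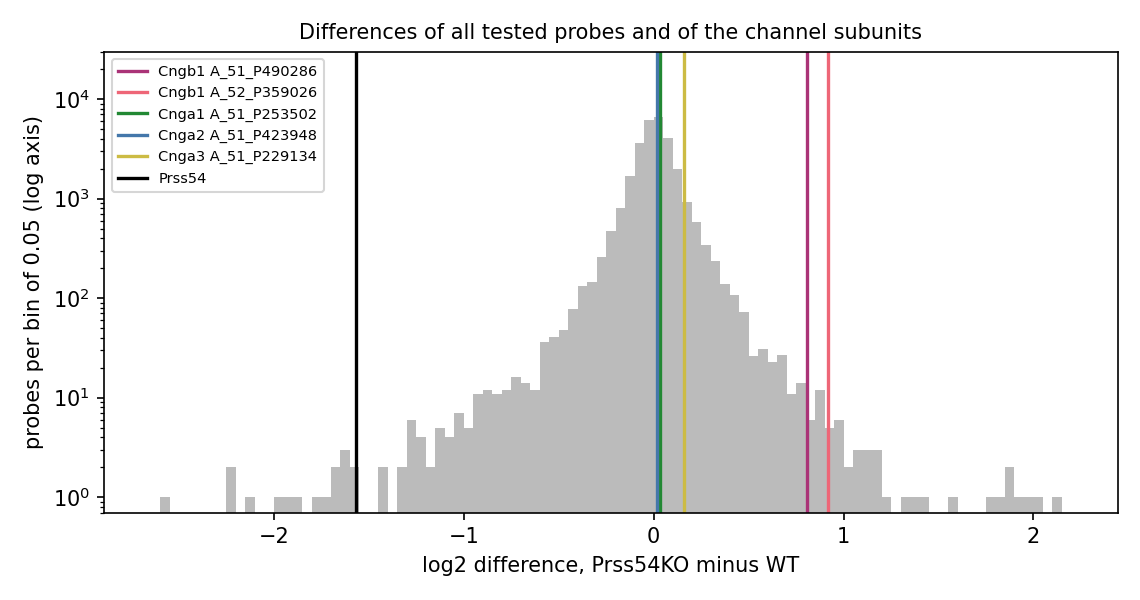
Distribution of the log2 difference (Prss54KO minus WT) over the 28913 tested probes, as probes per bin of 0.05 on a log axis, with lines for the tested subunit probes and for Prss54. Cnga1, Cnga2 and Cnga3, at 0.02 to 0.16, lie in the body of the distribution, and both Cngb1 probes, at 0.81 and 0.92, in its upper tail.

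Genes of cyclic nucleotide signalling that could act with these channels were counted in the same way. Of 98 entries in the lists, 87 had a probe under their own name, 7 under another name that RefSeq gives and 4 neither, and 102 probes of 63 genes were tested. With limma, 0 of these passed an adjusted p of 0.05 in either direction; at an unadjusted p under 0.05, 2 were higher and 1 lower, beside 1.73% and 1.5% of all tested probes. Their median difference was 0.01, beside 0.01 over all tested probes. Of the 102, 58 lay above 0, beside 52.8% of all tested probes. Groups did not overlap for 7 probes with Prss54KO higher and 2 with it lower. Over all 28913 tested probes the counts were 1213 higher, or 4.2%, and 1033 lower, with 7.77% in either direction.

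The phototransduction partners of the rod and cone channels were largely at background. Of 37 probes for this list, 15 were tested, and 17 of its 28 genes had no tested probe, among them Gnat1 (rod transducin) and Pde6a and Pde6b (the rod phosphodiesterase). The measured ones included the guanylyl cyclase activators Guca1a at -0.22 (SE 0.08) and Guca1b at 0.13 (SE 0.06), the latter at 0.05 on slide 2. Guca1a gave 1523, 1514 and 1613 in WT and 1487, 1370.1 and 1226 in Prss54KO, so its groups did not overlap. Limma's adjusted p was 0.999 for both.

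In the olfactory list, 17 probes of 8 genes were tested. Adrbk2, a receptor kinase that dampens odour signalling, differed by 0.23 (SE 0.09), 0.12 (SE 0.07) and 0.07 (SE 0.06) with its 3 probes, and the ion exchanger gene Slc24a4 by 0.22 (SE 0.12). On slide 2 the first Adrbk2 probe, A_52_P42336, stood at 0.06, and Slc24a4 stood at 0.11 without Prss54KO replicate 3. A further list, with 21 tested probes, held guanylyl cyclase genes together with natriuretic peptides, their receptors and nitric oxide synthases. In it, the soluble guanylyl cyclase subunit gene Gucy1b2 stood at 0.29 (SE 0.11) and the natriuretic peptide receptor gene Npr1 at 0.19 (SE 0.08). Gucy1b2 gave 129, 124 and 174 in WT against 173, 171 and 181 in Prss54KO, and on slide 2 alone, which holds the WT sample of 174, its difference was 0.03. Limma's adjusted p was 0.999 for these genes as well.

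Most differences were small for genes that act downstream of cyclic nucleotides or are related to CNG channels. The cyclic nucleotide phosphodiesterase genes Pde3b and Pde10a stood at 0.07 (SE 0.05) and -0.10 (SE 0.08), and Pde10a at 0.05 on slide 2. The dual phosphodiesterase gene Pde11a, which lies outside the naming rule and was picked after its values were seen, had the list's lowest difference, -0.92 (SE 1.07), and -0.44 (SE 1.31) with its other tested probe. The first of these probes gave 364, 344 and 52.0 in WT and 47.6, 356 and 59.8 in Prss54KO, so samples of both genotypes were high and low. The cGMP-dependent kinase gene Prkg1 gave 0.06 and 0.08 with its tested probes, and Mrvi1, which encodes a substrate of that kinase, -0.14. The list of calmodulin and calmodulin-like genes had a median of 0.00 over 9 tested probes. Of the calmodulin genes, whose product binds CNG subunits, Calm2 stood at -0.08 and -0.01 and Calm3 at 0.00, 0.03 and 0.15; leaving out a single array turned, for at least 1 choice of it, the sign of the probes at -0.01, 0.00 and 0.03. Of the related HCN channels, which are opened by hyperpolarization and tuned by cAMP, Hcn2 stood at 0.20 (SE 0.12), at 0.11 without WT replicate 1 and at -0.07 on slide 2. Hcn4 stood at 0.94 (SE 0.56), a value as large as that of Cngb1 but with overlapping groups: its signals were 171, 90.2 and 51.8 in WT and 96.3, 224 and 277 in Prss54KO. Leaving out 1 array moved it between 0.48 and 1.39. The sperm channel list, with the CatSper calcium channel and its partners, had a median of 0.03 over 19 probes. Its members with the smallest p were the CatSper subunit gene Catsper2 at 0.14 (SE 0.10) and the proton channel gene Hvcn1 at -0.18 (SE 0.11), which stood at 0.02 and -0.37 on slide 2. With limma, none of the genes in this paragraph passed (adjusted p 0.999).

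Within 100 kb of the chromosome 8 position of Cngb1 lie 4 probes of 3 gene names, all 81.6 to 86.8 kb away on the side of Prss54. They did not share one direction. The differences were above 0 for Tepp and Zfp319 and below 0 for the dim probes of an unnamed transcript. Tepp, a testis-expressed gene with high signal, differed by 0.42 (SE 0.17) with overlapping groups. The zinc finger gene Zfp319 differed by 0.22 (SE 0.08), with 477, 483 and 460.4 in WT and 593, 513 and 591 in Prss54KO. The unnamed transcript had 1 probe at -0.49 (SE 0.18), or -0.22 with normexp correction. Its groups did not overlap, at 49.8 to 55.5 in WT and 29.8 to 49.1 in Prss54KO. Another probe of this transcript stood at -0.05 (SE 0.18), or 0.11 without Prss54KO replicate 2. Both probes were well above background on 1 of 3 Prss54KO arrays. Around the chromosome 5 position, the only other probe within 100 kb, that of Tnrc18, stood at 0.18 (SE 0.19) with overlapping groups, and at 0.07 to 0.37 when 1 array was left out.

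The patterns nearest to Cngb1 over the 6 arrays were sought among all tested probes with a gene symbol, by the root mean square (RMS) difference of log2 levels after each probe was centred on its own mean. For A_51_P490286 they were Csnk2a2 probe A_52_P405362 (RMS 0.08), Gpkow probe A_51_P314584 (0.08), the other Cngb1 probe (0.09), Nlrp4e (0.16) and Gatsl2 (0.17). For A_52_P359026 they were the other Cngb1 probe (0.09), the same Gpkow (0.11) and Csnk2a2 (0.13) probes, Irs1 (0.17) and Nlrp4e (0.18). For scale, the RMS to a flat pattern was 0.41 and 0.47. The measure picks probes with a similar difference between genotypes, and no test is given.

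The casein kinase subunit gene Csnk2a2 lies between Cngb1 and Prss54, with this probe 212.0 kb from the chromosome 8 probe of Cngb1. The probe gave 248, 241 and 229 in WT and 401, 391 and 417 in Prss54KO, a difference of 0.72 (SE 0.07). Other probes of Csnk2a2 gave 0.41 (SE 0.07) and 0.01 (SE 0.06). Gpkow, a splicing-related gene on chromosome X, gave 683, 791 and 739 against 1238, 1260.2 and 1276, a difference of 0.74 (SE 0.08), while its other probe gave 0.07 (SE 0.08).

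**Figure D5:**
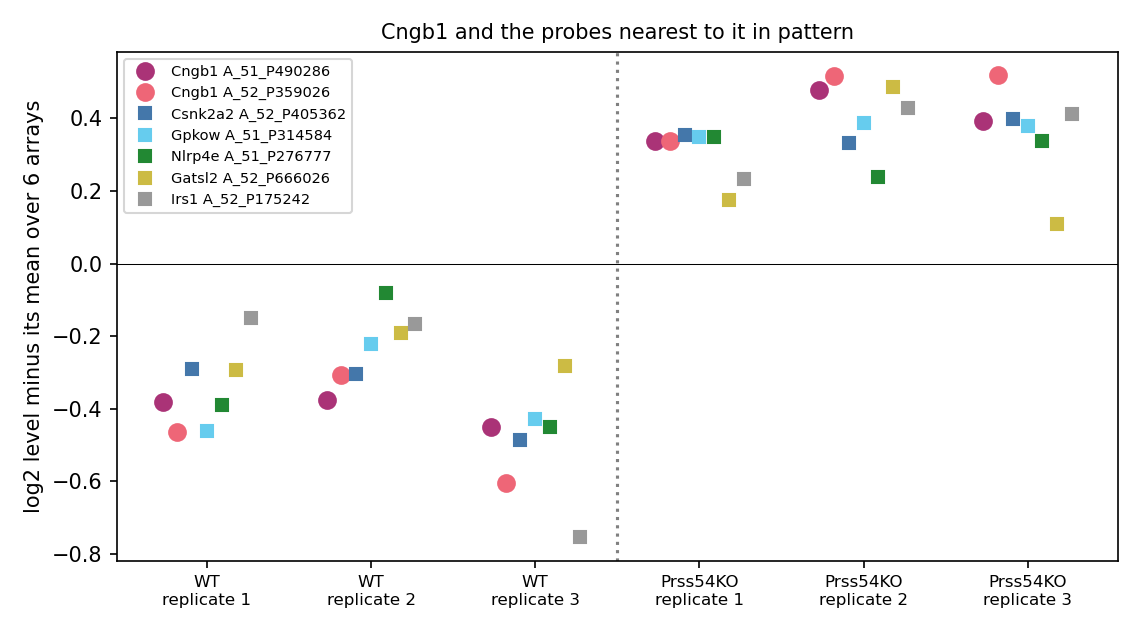
Log2 level of both Cngb1 probes (circles) and of the 5 other probes nearest to them in pattern (squares), each minus its own mean over the 6 arrays, by array. All 7 probes lie below 0 on the WT arrays and above 0 on the Prss54KO arrays.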

How the data were processed

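The scanner files hold intensity values that, per the file headers, the authors obtained with Agilent Feature Extraction version 10.7.3.1 (10.7 per the submitters' processing notes) from 0.5 ug of Cy3-labelled RNA per sample. A deposited log2 table, its making not stated in the labels or files, served as an alternative only. Outlier-marked spots (86 to 142 gene spots per array, none of a subunit probe) were left out, spots of 1 probe were averaged, and probes were kept apart. Log2 processed signals minus each array's 75th percentile were compared with limma (version 3.58.1, R 4.3.3; lmFit and eBayes, two-sided) over probes that 3 or more of the 6 arrays marked as well above background, with Benjamini-Hochberg adjustment over all of them and a threshold of 0.05. The fit was tested on simulated data. The 3 arrays per genotype limit the precision. Named genes are the subunits, Prss54, the 2 tested genes of each list with the smallest p, probes within 100 kb of a Cngb1 probe and the 5 nearest patterns. The members and lists were chosen with earlier results of these data known.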

Additional observations from a re-analysis of the deposited data

How the results depend on the processing

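Over the 17 alternatives, both Cngb1 probes stayed above 0 and the Prss54 probe below it, at -1.66 to -1.47. Not all of these are separate checks. For these probes the filters, the replicate block and the intensity trend with robust variance leave the difference as reported by construction. The slide as a fixed block repeats the value of slide 2 alone. For Cngb1, normexp background correction moved A_51_P490286 to 0.73 and A_52_P359026 to 0.61; with 1 array left out they ran from 0.77 to 0.84 and from 0.84 to 0.99. Cnga3 stayed above 0 in all 17, while Cnga1 did so in 13 and Cnga2 in 11. The number of probes at limma's adjusted p under 0.05, 0 as reported, was 1 with normexp correction (Prss54), 1 with the filter on all 6 arrays (Prss54), 1 with the slide as a fixed block (Klf1) and 2 with the intensity trend and robust variance (Prss54 and Cngb1 A_51_P490286, which was chosen for this difference, so nothing is read from its call), and 0 with any array left out. At an unadjusted p under 0.05 the count, 936 as reported, was 1671 without the filter on dim probes and, with 1 array left out, lay between 575 (WT replicate 1) and 1782 (WT replicate 3). In the pathway lists 0 probes were called under every alternative, and their median ran from -0.01 with median scaling to 0.03; with 1 array left out it ran from 0.01 to 0.03. Deviations of same-numbered samples from their group means correlated at -0.04, 0.02 and -0.15 over probes, and 1 of 6 samples correlated best with its own number. With 3 samples per group, these values cannot settle whether samples of the same number were paired. With the replicate block 0 probes passed the adjusted threshold and 1127 had an unadjusted p under 0.05. The Cngb1 differences stayed at 0.81 and 0.92, which this block cannot change because each number occurs once in each genotype. The causes of these shifts were not tested. Signals of Cnga1, Cnga2, Cnga3 and the dimmer Cngb1 probe are low, which limits their precision.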
